A study of Mus musculus with 7 samples.

Results

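The genes described here encode the insulin-like growth factor (IGF) system: the ligands Igf1 and Igf2, the receptors Igf1r and Igf2r, and the binding proteins Igfbp2 to Igfbp7. They were picked by symbol, 10 of the 22363 genes with a usable value in every library, and all 10 lay above the minimum of 1 FPKM (fragments mapped to a gene, scaled to transcript length and library size) that left 13469 genes for testing. RNA of cultured C57BL/6 fetal mouse kidneys was sequenced in 7 libraries, 3 of them E2-2 deleted and 4 E2-2 wildtype, and all 7 carried activated beta-catenin, through which canonical Wnt signals reach the genes. E2-2, encoded by Tcf4, is a basic helix-loop-helix factor that binds E-box sequences. Kidneys were taken at 10.5 days post coitum from pregnant mice given 2 mg of tamoxifen per 40 g of body weight on that day, and were grown on membranes for 3 to 4 days. The medium held 5 µg/mL of insulin, 5 µg/mL of transferrin and 5 ng/mL of selenium. The sources used here do not name the Cre line, the cells it acts in, the deleted exons or the culture time of single libraries. They do not say that the libraries came from separate animals, so p-values speak for the variation among these 7 libraries alone, which could be technical.

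The targeted gene, Tcf4, was at 33.5, 41.7 and 42.0 FPKM in deleted replicates 1 to 3 and at 48.8, 58.1, 28.7 and 39.2 in wildtype replicates 1 to 4. The groups overlapped, with a difference of -0.12 (SE 0.23) in log2(FPKM + 1) that ran from -0.30 without wildtype replicate 3 to 0.03 without wildtype replicate 2. A value for the whole gene does not show whether some exons are missing, so the genotypes below are those of the labels and were not checked by expression.

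IGF1 and IGF2 signal mainly through the receptor tyrosine kinase IGF1R, which acts through the IRS adaptors, PI3 kinase and AKT and thereby holds FoxO factors out of the nucleus. IGF2R, also the mannose 6-phosphate receptor, binds IGF2 and carries it to lysosomes without a growth signal. The binding proteins hold the ligands outside the cell, and proteases release them; IGFBP6 is known for its preference for IGF2, and IGFBP7 binds the ligands weakly. In the embryo Igf2 is the main growth ligand, made from the paternal allele, while Igf2r in the mouse is made from the maternal one. Insulin at the high levels used in culture media can also bind IGF1R.

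The members were listed with the genotype differences of these data already known, that of Igfbp6 among them, so every difference below is a description and supports nothing by itself. Differences are E2-2 deleted minus E2-2 wildtype in log2(FPKM + 1), with the standard error (SE) from limma, and levels are FPKM as mean ± SD (n = 3 deleted, n = 4 wildtype). Igfbp6 and Igfbp2 were higher in all 3 deleted libraries than in any wildtype library, by 2.69 (SE 0.52) and 0.85 (SE 0.19). These were 2 of the 10 members; over all genes tested 2.84% did so. No member was lower in every deleted library (2.05% over all genes). Of the 10 members 7 had a positive difference, against 39.3% of all genes tested, and the median difference was 0.20 for the members and -0.05 for all genes. The 39.3% was counted without further scaling. Rescaling each library by its median ratio over genes raised the median difference of all genes by 0.0469. Of the 7, Igfbp3 (0.08, SE 0.23) and Igfbp4 (0.06, SE 0.16) differed by less than their SE. By limma with Benjamini-Hochberg adjustment over all genes, 0 of the 10 passed 0.05, as did 0 of all 13469 (0%). At an unadjusted p under 0.05 it was Igfbp6 and Igfbp2, against 4.49% of all genes.

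**Figure D1:**
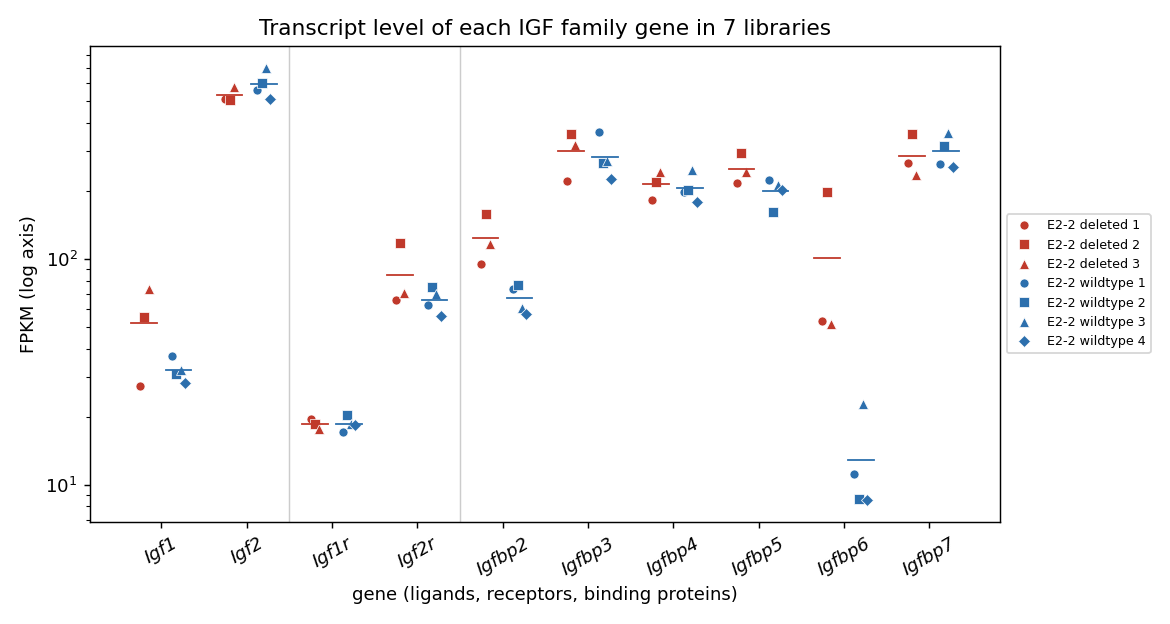
FPKM on a log axis of each IGF family gene in each of the 7 libraries (red, E2-2 deleted; blue, E2-2 wildtype; the marker shape gives the replicate, horizontal bars are group means). The deleted and wildtype points are apart for Igfbp2 and Igfbp6 and overlap for the other 8 genes.

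The inferred depth, summed over all entries, was 14589120 to 26647183 fragments per library. Of the kidney markers, the 6 ureteric bud genes summed to 62.4 to 202 FPKM in the 7 libraries, none at 0. Values above 0 do not by themselves establish kidney identity. Calb1, 1 of the 6, was at 5.43 FPKM in deleted replicate 2 and at 26.9 to 78.7 in the wildtype libraries. No other of the 6 was lowest of the 7 libraries in that replicate, and Gata3 (15.4 FPKM) was highest. Ret, Wnt11, Cdh1 and Krt8 lay within the wildtype range there. Six2, a nephron progenitor factor, was at 29.0 to 74.8 FPKM in the wildtype libraries and at 62.8, 2.69 and 33.5 in deleted replicates 1 to 3. Deleted replicate 2 stood apart: it was the lowest of the 7 libraries for 5 of the 5 nephron progenitor markers, at a summed level of 18.6 FPKM against 88.1 to 220 in the wildtype libraries. Where a difference printed below moves by over 1.5 times without this library, that value is given too, except for Igf1r, whose difference is near 0 either way. The deposited names of 4 libraries begin with BI (deleted replicates 1 and 2, wildtype replicates 1 and 2) and those of 3 with BM, without a stated meaning, and differences within each prefix are given too. In bulk RNA, fewer cells of a type and less RNA per cell cannot be told apart.

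Transcript levels, which FPKM makes comparable between genes of different length, spanned a wide range within the family. In the wildtype libraries Igf2 was the highest member, at 595 ± 81.7 FPKM, above every wildtype value of every other member. Igfbp7 (300 ± 49.3), Igfbp3 (282 ± 58.3), Igfbp4 (207 ± 29.3) and Igfbp5 (199 ± 27.4) came next, and each overlapped its neighbour in that order. Igfbp2 (67.0 ± 9.48) and Igf2r (65.9 ± 8.40) overlapped one another, below all 4 of those. Igf1 (32.1 ± 3.79) lay above Igf1r (18.6 ± 1.30) in 4 of 4 libraries without overlap, and Igfbp6 had the lowest mean, 12.8 ± 6.82, below Igf1r in 3 of 4 libraries. Over all 7 libraries Igf2 lay at the 99.6th percentile of the genes tested, and Igfbp3, Igfbp4, Igfbp5 and Igfbp7 between the 98.3th and 98.9th. Igf1r was at the 59.5th percentile. In the deleted libraries Igfbp6 stood 7th of 10 members, overlapping Igfbp2 and Igf2r. Igfbp1 and Igfbpl1, binding protein genes outside this list, stayed below 1 FPKM in every library (0.126 to 0.863 and 0.134 to 0.708).

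Among the ligands, Igf2 (chromosome 7, 149836673 to 149846940 as the deposited tables give it, with no build named) was at 509, 506 and 580 FPKM in deleted replicates 1 to 3. In wildtype replicates 1 to 4 it was at 561, 603, 704 and 511. The groups overlapped, and the difference was -0.15 (SE 0.19, 95% confidence interval -0.59 to 0.28). The locus overlaps that of the antisense gene Igf2as by 1343 bases. No strand setting was found, so whether their reads there were told apart is not known. Igf2as was at 1.71 to 3.26 FPKM in the deleted libraries and, without overlap, at 3.38 to 4.38 in the wildtype ones (2.05% of all genes tested were lower in every deleted library). Its difference was -0.36 (SE 0.19), and -0.15 without deleted replicate 2. H19, the maternally expressed RNA of the same imprinted domain, was at 881 ± 175 against 1141 ± 312, and the ratio of Igf2 to H19 FPKM lay between 0.440 and 0.728 in the 7 libraries with overlapping groups.

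Igf1 (chromosome 10, 87321801 to 87399792) varied more than Igf2. It was at 27.2, 55.1 and 73.2 FPKM in deleted replicates 1 to 3 and at 37.1, 30.9, 32.3 and 28.1 in wildtype replicates 1 to 4. Deleted replicates 2 and 3 lay above every wildtype library and deleted replicate 1 below them all. The difference was 0.57 (SE 0.30; 0.19 within BI, 1.26 within BM), with a range of 0.27 without deleted replicate 3 to 0.97 without deleted replicate 1. Igf1 made up 5.08%, 9.82% and 11.2% of the summed ligand FPKM in the deleted libraries and 4.38% to 6.21% in the wildtype libraries.

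Of the receptors, Igf1r was the steadiest member. Igf1r (chromosome 7, 75097143 to 75378553) was at 19.5, 18.6 and 17.6 FPKM in deleted replicates 1 to 3 and at 17.2, 20.3, 18.6 and 18.3 in wildtype replicates 1 to 4. All 7 values lay within 0.23 on the log2 scale, a range smaller than that of all but 5.40% of the genes tested, and the 95% confidence interval of the difference was -0.22 to 0.22.

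Igf2r (chromosome 17, 12875272 to 12962572) was at 65.4, 117 and 70.9 FPKM in deleted replicates 1 to 3 and at 62.5, 75.4, 69.5 and 56.1 in wildtype replicates 1 to 4. Deleted replicate 2 was the highest of the 7, and the other deleted libraries lay among the wildtype ones. The difference was 0.31 (SE 0.21; 0.35 within BI, 0.18 within BM) and 0.06 without deleted replicate 2. The ratio of Igf2r to Igf1r FPKM was 6.31 in that library and 3.07 to 4.03 in the other 6. Airn, the paternally expressed RNA that runs antisense through Igf2r and silences it on that allele, overlaps the locus by 28396 bases. It was at 27.7 ± 5.20 against 18.9 ± 2.64 FPKM with overlap (0.52, SE 0.16). No strand setting was found, so whether reads from the overlap were assigned by strand is not known.

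Igfbp6 (chromosome 15, 101974617 to 101979943) had the widest range of the members. It was at 53.1, 198 and 51.4 FPKM in deleted replicates 1 to 3 and at 11.1, 8.64, 22.9 and 8.53 in wildtype replicates 1 to 4. Deleted replicate 2 was far above the other deleted libraries, which lay close together and above every wildtype value. The means were 101 ± 84.0 against 12.8 ± 6.82, a ratio of 7.88, and 4.08 without deleted replicate 2, where the deleted mean was 52.3. The difference of 2.69 was 3.26 within BI, 1.797 within BM and 2.06 without deleted replicate 2; the choice of groups that do not overlap fixes its sign. The authors' intervals for single libraries were narrow beside these gaps, at 48.6 to 54.2 FPKM in deleted replicate 3 and 21.1 to 24.7 in wildtype replicate 3. Between 141 and 3903 fragments were inferred per library. The range of 4.38 on the log2 scale lay at the 99.8th percentile of the genes tested.

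Igfbp2 (chromosome 1, 72871054 to 72899045) encodes a binding protein of the fetal circulation. It was at 94.5, 159 and 116 FPKM in deleted replicates 1 to 3 and at 73.3, 76.7, 60.7 and 57.2 in wildtype replicates 1 to 4. The means were 123 ± 32.7 against 67.0 ± 9.48, a ratio of 1.84, and 1.57 without deleted replicate 2. The difference of 0.85 was 0.70 within BI and 0.97 within BM. Its neighbour Igfbp5 (72904639 to 72921439) lies 5593 bases away with no other listed gene between. Igfbp5, which binds to extracellular matrix, was at 216, 294 and 242 FPKM in deleted replicates 1 to 3 and at 223, 161, 213 and 201 in wildtype replicates 1 to 4. The groups overlapped, and Igfbp5 differed by 0.33 (SE 0.17), with 0.41 in BI and 0.22 in BM libraries and 0.21 without deleted replicate 2.

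**Figure D2:**
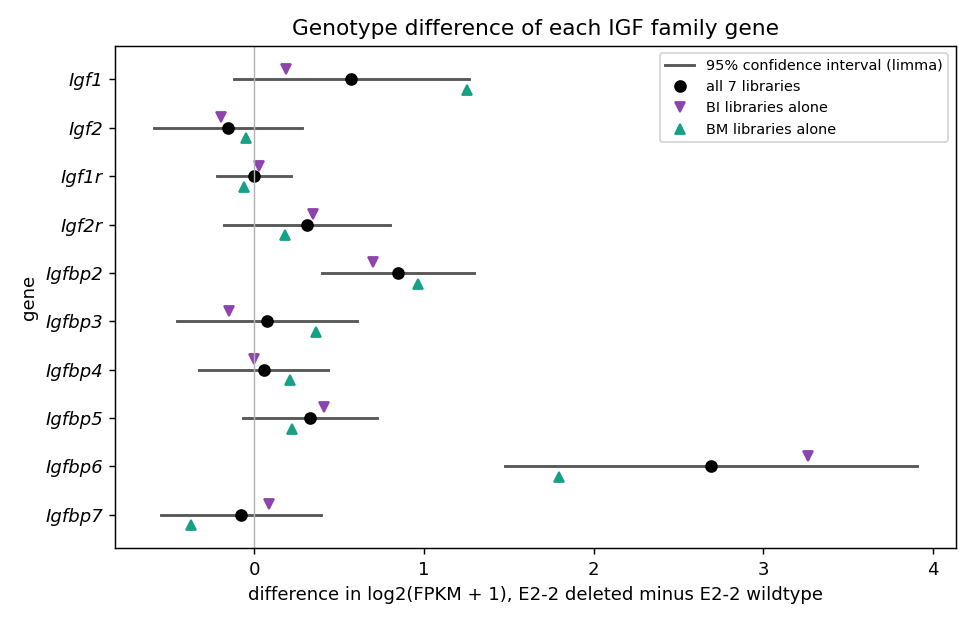
Genotype difference of each gene in log2(FPKM + 1), E2-2 deleted minus E2-2 wildtype, over all 7 libraries (black, with the 95% confidence interval from limma) and within each prefix of the library names (triangles). Igfbp6 (2.69) and Igfbp2 (0.85) lie farthest from 0, and Igfbp3, Igfbp4, Igfbp7 and Igf1r have opposite signs in the 2 prefixes.

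The promoters of Igfbp6 and Igfbp2 are shown because these were the members whose groups did not overlap and because E2-2 binds E-boxes. The windows hold 250 bases before to 50 after the RefSeq start (GRCm38.p6, plus strand for both), at chr15:102143936-102144235 for Igfbp6 and chr1:72824230-72824529 for the first start of Igfbp2. The gene loci above are as deposited, with no build named, so the window coordinates cannot be set against them. Capitals mark the E-box letters CANNTG, which read the same on both strands.
Igfbp6: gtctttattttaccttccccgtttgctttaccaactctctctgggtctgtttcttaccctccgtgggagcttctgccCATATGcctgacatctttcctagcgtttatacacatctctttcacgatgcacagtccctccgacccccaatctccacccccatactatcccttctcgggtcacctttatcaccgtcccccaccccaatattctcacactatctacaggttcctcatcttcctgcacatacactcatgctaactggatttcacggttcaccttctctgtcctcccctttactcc
Igfbp2: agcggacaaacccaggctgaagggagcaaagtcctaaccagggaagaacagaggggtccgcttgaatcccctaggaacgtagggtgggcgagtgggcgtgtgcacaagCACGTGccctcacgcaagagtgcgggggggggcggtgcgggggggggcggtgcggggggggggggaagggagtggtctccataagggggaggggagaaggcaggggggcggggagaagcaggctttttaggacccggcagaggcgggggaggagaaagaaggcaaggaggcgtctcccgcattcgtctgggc
Each window held 1 E-box, CATATG in Igfbp6 and CACGTG in Igfbp2. Of 32851 promoter windows of this length, 72.3% held at least 1 E-box. The narrower form CAGNTG, read on the other strand as CANCTG, which E proteins are known to favour, was in neither window, and 51.4% of all windows held it; the second window of Igfbp2, at a later start, held 1, CAGGTG. The TCF/LEF core CTTTGA, read on the other strand as TCAAAG, was in neither, against 16% of all windows, and no E-box of the members overlapped one. Of the 14 windows of the 10 members, 10 had an E-box, 6 the narrower form and 3 the TCF/LEF core. These matches describe letters and no binding was measured.

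The other 3 binding proteins had overlapping groups. Igfbp3, the main carrier of IGF in adult serum (chromosome 11, 7106096 to 7113926), was at 221, 358 and 319 FPKM in deleted replicates 1 to 3 and at 364, 266, 271 and 226 in wildtype replicates 1 to 4. Its difference was 0.08 (SE 0.23; -0.15 within BI, 0.36 within BM), and -0.07 without deleted replicate 2. Igfbp4, a target of the protease PAPP-A (chromosome 11, 98902574 to 98913957), was at 182, 220 and 243 FPKM against 199, 202, 248 and 178 in the same order. It differed by 0.06 (SE 0.16), by -0.00 in BI and 0.21 in BM libraries, and by 0.04 without deleted replicate 2. Deleted and wildtype values of both genes were interleaved. Igfbp7 (chromosome 5, 77778265 to 77837070) was at 265, 358 and 235 against 264, 317, 362 and 256 FPKM, again interleaved. It differed by -0.08 (SE 0.20), and by 0.09 in BI and -0.37 in BM libraries, and by -0.25 without deleted replicate 2. The 95% confidence intervals of these 3 differences were -0.45 to 0.61, -0.32 to 0.44 and -0.55 to 0.40.

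Of the shares of the 6 binding proteins in their summed FPKM, those of Igfbp6 and Igfbp2 did not overlap between the genotypes; the mean share of Igfbp7 differed by -5.51 percentage points, Igfbp6 by 6.12 and Igfbp2 by 3.29. The summed FPKM of the 6 genes was 1031, 1587 and 1207 in deleted replicates 1 to 3 and 1134, 1031, 1178 and 928 in wildtype replicates 1 to 4, and the groups overlapped; the difference of the means was 207, and 51.5 without deleted replicate 2. Igfbp6 made up 5.15%, 12.5% and 4.26% of that sum in the deleted libraries and 0.838% to 1.94% in the wildtype ones, and without deleted replicate 2 its mean share differed by 3.53 points. Igfbp2 made up 9.17%, 10.002% and 9.63% against 5.15% to 7.44%. The share of Igfbp2 was close to equal in the 3 deleted libraries although its level was not. Igfbp7 took 22.6% ± 3.10 against 28.1% ± 3.52 (SD), with overlap. Ligand FPKM (Igf1 and Igf2) over that of the 6 binding proteins was 0.520, 0.354 and 0.541 in the deleted libraries and 0.528 to 0.6248 in the wildtype libraries. The means differed by -0.116, and by -0.0566 without deleted replicate 2. That library had the lowest ratio and deleted replicate 3 lay within the wildtype range.

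**Figure D3:**
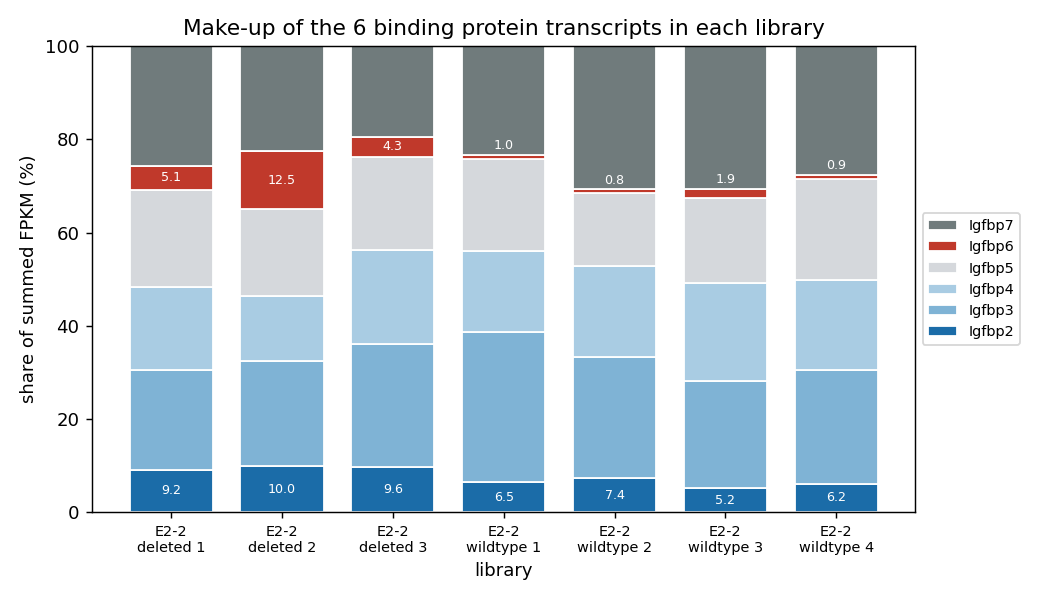
Share of each binding protein gene in the summed FPKM of the 6 in each library (stacked bars, percent; printed values are those of Igfbp2 and Igfbp6). Igfbp6 takes 4.26% to 12.5% in the deleted libraries and at most 1.94% in the wildtype libraries.

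Other genes of the IGF pathway, listed by name, showed no call. Of 58 such genes 51 were tested: 29 had a positive difference and 22 a negative one (median 0.04), and by limma 0 passed the adjusted threshold. At an unadjusted p under 0.05 there were 4 higher, Htra1, Airn, Grb14 and Irs1 (3.29% over all genes), and 0 lower (1.20%). Higher in every deleted library were 3 of the 51 (2.84% over all genes) and lower 1 (2.05%). Of the genes that modulate ligand release, all 6 tested had a positive difference (median 0.32), against 39.3% of all genes tested. The count rests on single libraries: Adam12 turned to -0.08 without deleted replicate 2 and Stc1 to -0.04 without wildtype replicate 3. Htra1, a secreted protease that cleaves binding proteins, was at 15.5, 107 and 30.3 FPKM in deleted replicates 1 to 3 and at 10.5, 15.3, 16.8 and 7.69 in wildtype replicates 1 to 4. Its difference was 1.55 (SE 0.59; limma adjusted p = 0.795) and 0.80 without deleted replicate 2. Pappa, which encodes PAPP-A, was at 10.02 ± 2.93 against 6.93 ± 1.75 FPKM, a difference of 0.47 (SE 0.23) that was 0.26 without deleted replicate 2.

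In the receptor signalling group, 12 of 24 tested genes had a positive difference (median -0.02). The adaptor genes Irs1 and Grb14 were higher in every deleted library. Irs1, which docks PI3 kinase to the receptor, was at 7.96, 21.0 and 10.2 FPKM against 7.11, 7.77, 7.74 and 6.55, a difference of 0.65 (SE 0.28; adjusted p = 0.795 by limma). Without deleted replicate 2 that difference was 0.28. Grb14, which binds and dampens the insulin receptor, was at 7.90 ± 2.16 against 5.12 ± 0.600 FPKM, a difference of 0.52 (SE 0.18; adjusted p = 0.795 by limma), and 0.33 without deleted replicate 2. Eif4ebp1, a translation repressor under mTOR, was at 68.9 ± 20.7 against 87.2 ± 8.55 FPKM, a difference of -0.38 (SE 0.21) that was -0.13 without deleted replicate 2.

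Among FoxO factors and known FoxO targets, 7 of 11 had a positive difference (median 0.05). Cdkn1b, a cell cycle inhibitor, was lower in every deleted library, at 22.8 ± 0.764 against 26.8 ± 3.15 FPKM (-0.22, SE 0.11; -0.14 without wildtype replicate 3), and Foxo3 was higher in every one, at 18.3 ± 1.34 against 16.3 ± 0.858 (0.16, SE 0.09; 0.10 without deleted replicate 2). Pik3ip1, a PI3 kinase inhibitor, was at 9.84 ± 3.59 against 6.85 ± 0.602 FPKM; its difference was 0.41, and 0.18 without deleted replicate 2. Sesn3, a stress-response regulator of mTOR, was at 37.5 ± 5.97 against 31.8 ± 2.41, a difference of 0.22 that was 0.10 without that library. The groups overlapped for both. Of the related ligands and receptors, 3 were tested. Insr, the insulin receptor gene, was at 13.3 ± 0.283 against 11.3 ± 1.92, Ghr, the growth hormone receptor gene, at 32.0 ± 4.92 against 38.7 ± 4.57 and Lrp1, an endocytic receptor, at 63.9 ± 19.5 against 48.9 ± 14.0 FPKM. Without deleted replicate 2 the difference of Lrp1 went from 0.38 to 0.14 and that of Ghr from -0.27 to -0.14, and without wildtype replicate 4 that of Insr went from 0.23 to 0.15. Ins2 was listed at 0 in every library. The Igf2 mRNA-binding protein genes Igf2bp1 and Igf2bp3 were at 11.1 ± 0.664 against 12.8 ± 1.98 and at 19.8 ± 1.79 against 21.5 ± 0.781, where the difference of Igf2bp3 was -0.11, and -0.04 with deleted replicate 2 left out; 2 of the 7 genes of that group had a positive difference.

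Genes with the nearest pattern were named for the 3 members of widest range, by the root mean square (RMS) difference of centred log2(FPKM + 1) over the 7 libraries. Nearest to Igfbp6 were the peptide hormone gene Pyy (RMS 0.39), the collagen-binding proteoglycan gene Fmod (0.43) and the calcium-binding protein gene S100a4 (0.49). Fmod was at 18.6, 76.3 and 35.6 FPKM in deleted replicates 1 to 3 and at 2.75 to 8.34 in the wildtype libraries. All 3 were highest in deleted replicate 2. The genes named here were chosen for their likeness over the same libraries, and that choice favours a shared peak. Nearest to Igfbp2 were the zinc transporter gene Slc30a2 (RMS 0.11), the sodium-calcium exchanger gene Slc8a3 (0.11) and Atrnl1 (0.12). Each was also highest in deleted replicate 2. Pyy (0 to 0.925 FPKM) and Slc30a2 (0.170 to 0.830 FPKM) lay below 1 FPKM in every wildtype library. Their means passed the minimum of 1 FPKM through the deleted libraries. Nearest to Igf1 were the bone-resorbing protease gene Ctsk (RMS 0.15), the phosphatase subunit gene Ppp2r2b (0.16) and the activin antagonist gene Fst (0.16), each highest in deleted replicate 3.

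**Figure D4:**
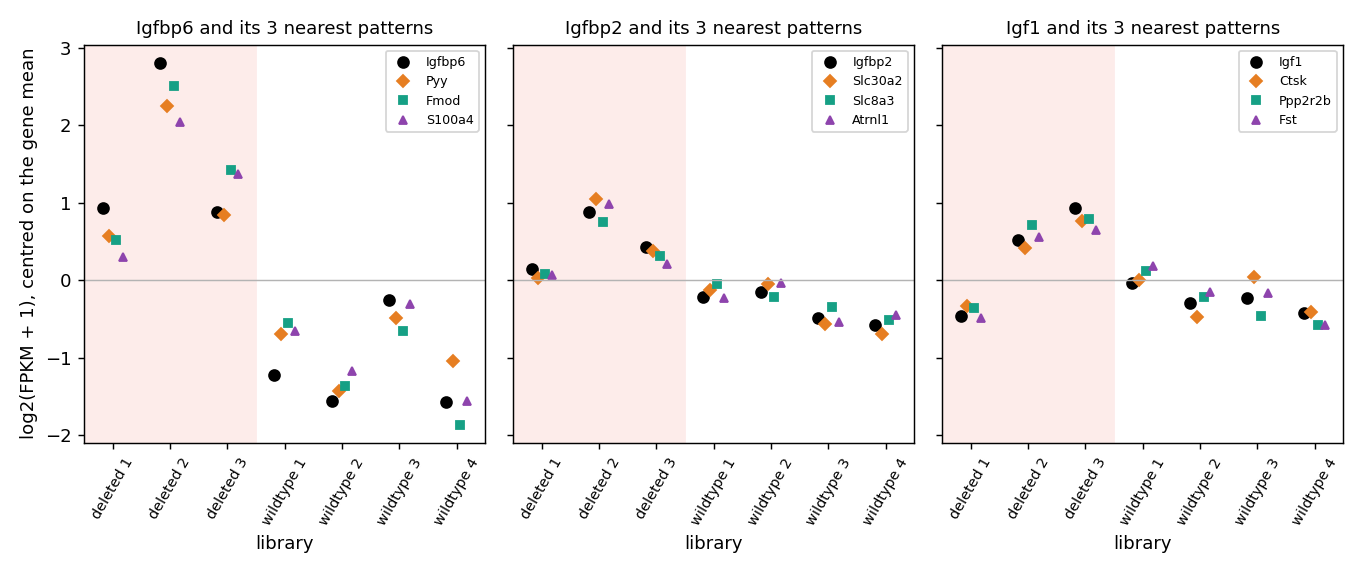
Centred log2(FPKM + 1) in the 7 libraries (shaded, E2-2 deleted) of Igfbp6, Igfbp2 and Igf1 (black circles) and the 3 genes of nearest pattern to each. The Igfbp6 set and the Igfbp2 set peak in deleted replicate 2 and the Igf1 set in deleted replicate 3. The choice by pattern favours a shared peak. In the Igf1 set deleted replicate 1 lies below the highest wildtype library for all 4 genes.

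Markers of other cell types moved with Igfbp6 in deleted replicate 2, and their part in its level was not tested. In that library the summed FPKM of 5 osteoblast markers was 78.4, against 29.2 and 74.2 in deleted replicates 1 and 3 and 8.51 to 38.4 in the wildtype libraries. The 4 mesothelium markers summed to 89.0, against 55.7 and 39.7, and 7.09 to 45.9, most of it Krt19 (70.5 FPKM in deleted replicate 2). The 6 fibroblast and tendon markers summed to 820, against 474 and 733, and 336 to 633, most of it Dcn (606 FPKM in deleted replicate 2). The 6 did not move together: Fmod was higher in every deleted library, Scx was lowest of the 7 libraries in deleted replicate 2 (2.29 FPKM, against 7.16 to 19.1 in the wildtype libraries), and Lum, Ogn and Tnmd overlapped. The 3 smooth muscle markers summed to 1874 in deleted replicate 2 and 1802 in wildtype replicate 3, the libraries with the highest Igfbp6 of their groups, and to 573 to 823 in the other 5. No marker of these 4 lists was at 0 in any library. Melanocyte markers, picked as the highest of the lists compared, had the most members higher in every deleted library. These were 3 of 4, Tyr, Dct and Mlana (2.84% over all genes tested), and Mitf overlapped. Their sums were 16.9 to 63.9 against 2.52 to 14.6 FPKM. Tyr was low in the wildtype libraries, at 0.0245 to 0.661 FPKM. In deleted replicates 1 and 3 Igfbp6 was at 53.1 and 51.4 FPKM. In replicate 1 the nephron progenitor (191), smooth muscle (685), osteoblast (29.2) and fibroblast (474) sums lay within the wildtype range. The mesothelium sum of that library (55.7) lay above it. Of that list only Krt19 (51.1 FPKM) did so, against 6.41 to 40.5 in the wildtype libraries. In replicate 3 the nephron progenitor (124) and mesothelium (39.7) sums lay within the wildtype range. The osteoblast (74.2) and fibroblast (733) sums of replicate 3 lay above it, and its smooth muscle sum (573) lay below. Of the mesothelium markers in replicate 3, Upk3b (6.09) and Lrrn4 (1.57) lay above their highest wildtype values (2.18 and 0.256). Krt19 and Msln did not.

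**Figure D5:**
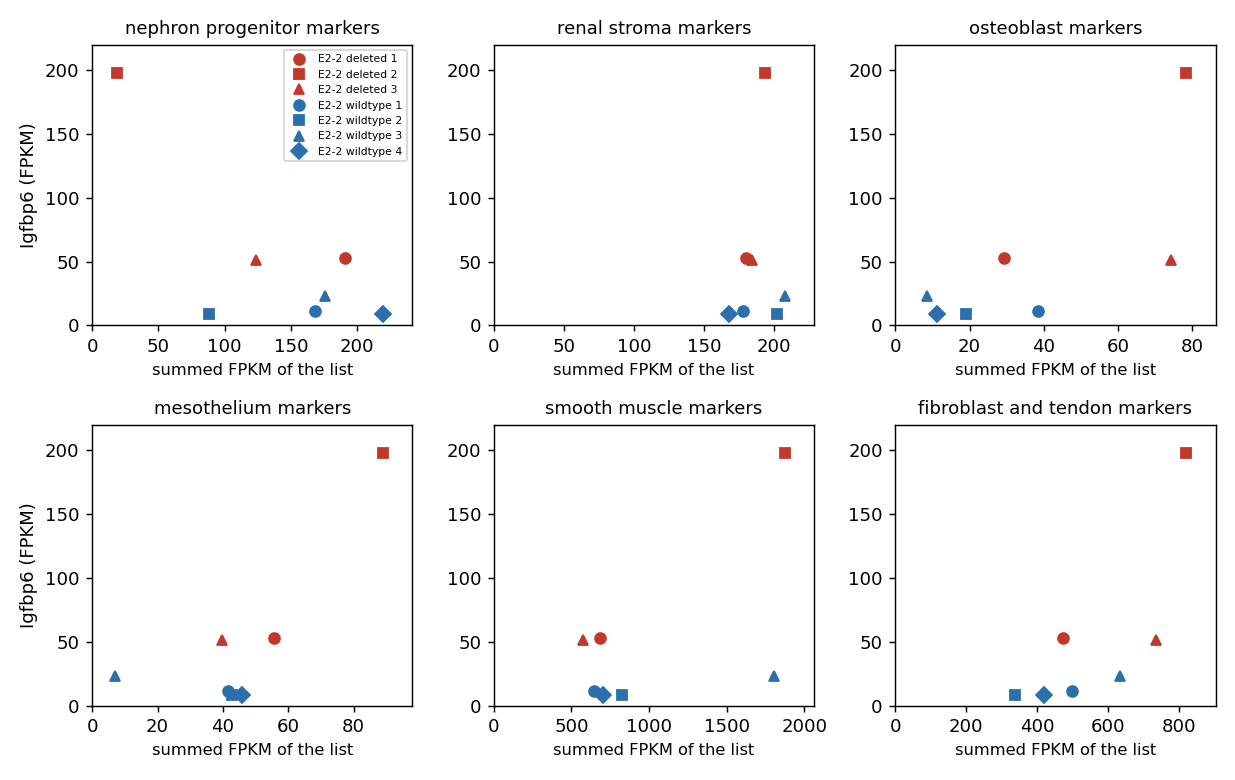
Igfbp6 FPKM against the summed FPKM of 6 marker lists in each library (red, E2-2 deleted; blue, E2-2 wildtype; the shape gives the replicate). Deleted replicate 2 lies at the top of every panel. It has the lowest nephron progenitor sum (18.6) and the highest osteoblast, mesothelium, smooth muscle and fibroblast sums. Its renal stroma sum (194) lies within the wildtype range (168 to 208), but the 5 genes of that list do not move together. In deleted replicate 2, 2 of them are lowest of the 7 libraries and 1 is highest. Foxd1 is at 2.30 FPKM there, against 12.0 to 26.7 in the wildtype libraries, and Pdgfra at 69.7, against 42.7 to 50.6. The other deleted libraries lie at about equal Igfbp6, with renal stroma sums close together (180 and 185) and different sums in the other panels.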

How the data were processed

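Each library has its own table, deposited by the authors as FPKM per gene with an interval and a status, per the file headers. The submitters' processing notes list Cufflinks 2.0.2, TopHat2 2.0.4 and CASAVA 1.8.2 with no roles; build, annotation and strand setting were not found in the sources. FPKM was added up over the entries that share a symbol (248 symbols); genes with a failed status in any library and loci under 200 bases were left out. Fragments per gene were inferred as the square of 2 times the FPKM over its distance to the upper bound; for genes with a single start, 78.9% to 79.96% of those under 300 lay within 0.05 of a whole number. Genes with a mean of at least 1 FPKM were compared as log2(FPKM + 1), with no further scaling, by limma 3.58.1 in R 4.3.3 (2-sided, with a mean-variance trend; p-values adjusted by Benjamini-Hochberg over all genes, threshold 0.05). A log2 difference on this scale understates the change of low genes. The fit was tested on simulated data. Tables were made with pandas 2.3.3 in Python 3.11.15. Promoter sequences are those of RefSeq (GRCm38.p6); all 10 members matched by symbol. Replicate numbers only name samples, in accession order. The members and gene lists were chosen with earlier results of these data known. Genes named in the text are the members, the pathway genes of smallest p in each sublist (2 to 4 each), the 3 nearest patterns of the 3 members of widest range, and defining markers. Alternatives were other pseudocounts, filters and scalings, a weight per library, the name prefix, and leaving out each library.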

Additional observations from a re-analysis of the deposited data

Results flagged for a closer look

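Of 51 values checked in the 4 wildtype libraries, 3 had 1 library farther from the rest than Dixon's 95% limit for 4 samples, a rate near the 1 in 20 that chance gives. The share of Igfbp6 among the 6 binding proteins was 1.94% in wildtype replicate 3, against a median of 0.951% in the 4 libraries; the highest level of Igfbp6 among the wildtype libraries is in that library too. Cdkn1b was at 31.5 FPKM in wildtype replicate 3, against a median of 25.2. The ratio of Igf2r to Igf1r FPKM was 3.07 in wildtype replicate 4, against a median of 3.68.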

How the results depend on the processing

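No paired analysis was possible because the labels give the libraries no shared replicate numbers. Under 17 alternatives 0 of the 10 members passed an adjusted p of 0.05. The count over all genes went from 0 to 1 with no filter (Ndufs5, mean 0.942 FPKM) and to 1 with a weight per library (9130015A21Rik), both named after their values were seen. Igfbp6 differed by 1.797 (BM alone) to 3.26 (BI alone), and Igfbp2 by 0.65 (without deleted replicate 2) to 1.02 (without deleted replicate 1). Both stayed positive, as did Igf1, Igf2r and Igfbp5, and Igf2 stayed negative. The groups of Igfbp6 and Igfbp2 do not overlap, so leaving out libraries could not turn the sign of these 2 genes. The sign of Igf1r turned in 6 alternatives, of Igfbp3 and Igfbp7 in 4 each and of Igfbp4 in 3. Between 5 and 9 members had a positive difference, leaving out each library in turn included. Members higher in every deleted library numbered 2 to 4 when libraries were left out, 4 without deleted replicate 1, where Igf1 and Igfbp5 joined. Leaving out a library can only keep or raise this count. The summed binding protein FPKM differed by 51.5 to 329 (207 with all libraries), lowest without deleted replicate 2 and highest without deleted replicate 1. The share of Igfbp6 differed by 3.53 to 7.64 percentage points (6.12) and that of Igfbp2 by 2.91 to 3.67 (3.29); the ligand ratio differed by -0.15 to -0.06 (-0.12). Genes at an unadjusted p under 0.05 numbered 231 (without deleted replicate 2) to 1473 (without deleted replicate 1), against 605. The causes were not tested. Depth limits Igfbp6 most, with 141 inferred fragments in its lowest library.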
